A study of Mus musculus with 4 samples.

Results

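The ADAM and ADAMTS proteases described here are 10 genes on the arrays: Adamts1, Adamts4, Adamts5, Adamts9, Adamts12, Adamts15, Adam9, Adam10, Adam12 and Adam17. They were taken by gene symbol, from the accession that names each probe, and are covered by 15 probes. Of the 10 genes, 9 were above background and entered the comparison, among 13567 genes tested of 21154 named on the array. Adamts12 was the exception.

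The arrays hold RNA of primary cultured mouse mesenchymal stromal cells (MSCs), the plastic-adherent stromal cells that can form bone, cartilage and fat, at passage 5. Each shIslr culture carried a retroviral short hairpin RNA against Islr, the gene of the secreted and membrane-bound protein Meflin. There were 3 such hairpins with different target sequences, called hairpins 1, 2 and 3 after their label numbers, with 1 array each. The shControl culture, on 1 array, is labelled as carrying a control hairpin, whose delivery the labels do not describe separately. The strain, the tissue and number of animals, the hairpin sequences and whether the cultures came from 1 preparation are not given in the labels, so the spread between hairpins may be partly technical.

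ADAMs and ADAMTSs are zinc-dependent proteases of the metzincin group, made as inactive precursors whose prodomain is removed, usually by furin-like convertases. ADAMs span the cell membrane, and several of them shed the outer part of growth factor precursors, cytokines and adhesion molecules. ADAMTSs are secreted, carry thrombospondin type 1 motifs that hold them in the matrix, and in cartilage, vessel wall and ovary are known for cutting the large hyaluronan-binding proteoglycans aggrecan and versican. In stromal cells the ADAMTS group therefore turns over the matrix the cells lay down, while Adam10 and Adam17 work at the cell surface.

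The 12 mesenchymal stromal marker genes looked up (Thy1, Eng, Nt5e, Cd44, Ly6a, Pdgfra, Pdgfrb, Vim, Col1a1, Col1a2, Prrx1 and Twist1) were above background on all 4 arrays. Of 8 macrophage markers, Itgam, Csf1r, Cd14 and Cd68 were above background on all 4 arrays, and Ptprc, Adgre1, Lyz2 and Tyrobp on none. Of 6 endothelial markers, Kdr and Pecam1 were above background on all 4 arrays, and Cdh5, Tek, Tie1 and Emcn on none. Of 6 epithelial markers, Krt18 and Krt19 were above background on all 4 arrays, Cldn4 on some, and Epcam, Cdh1 and Krt8 on none. Between 49.4% and 53.8% of features were called well above background on an array, and none was saturated. Islr had processed signals of 11.009, 70.5 and 3.44 on hairpins 1, 2 and 3, against 454 on the control array. Hairpins 1 and 3 were not well above background there, so the fall in Islr is a bound of at least 20.5-fold on hairpin 1 and at least 29.6-fold on hairpin 3. On hairpin 2 it was 6.33-fold lower. These bounds set the control against the lowest signal called above background on that array, which is not the limit of the Islr probe itself.

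Promoter windows from RefSeq (build GRCm38.p6), from 250 bases before to 50 bases after the gene's start, were available for 5 of the 10 genes. The windows of Adamts1, Adam10 and Adam17 are shown 5′ to 3′ on the gene's strand. Adamts4, Adamts5, Adamts15, Adam9 and Adam12 had none, and no link between a window and a difference was tested. Capitals mark the motifs searched on both strands, in part overlapping: the TATA box (TATAAA), the CCAAT box (CCAAT), the GC box (GGGCGG), the AP-1 site (TGANTCA), the cAMP response element (TGACGTCA) and its short form (TGACG), and the E-box (CACGTG).
Adamts1, chr16:85803064-85803363, minus strand: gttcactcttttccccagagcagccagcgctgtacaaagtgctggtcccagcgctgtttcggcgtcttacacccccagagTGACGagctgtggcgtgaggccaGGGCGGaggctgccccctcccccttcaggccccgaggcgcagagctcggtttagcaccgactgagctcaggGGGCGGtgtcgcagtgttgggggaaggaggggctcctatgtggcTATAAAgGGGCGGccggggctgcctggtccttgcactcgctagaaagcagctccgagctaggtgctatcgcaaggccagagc
Adam10, chr9:70678732-70679031, plus strand: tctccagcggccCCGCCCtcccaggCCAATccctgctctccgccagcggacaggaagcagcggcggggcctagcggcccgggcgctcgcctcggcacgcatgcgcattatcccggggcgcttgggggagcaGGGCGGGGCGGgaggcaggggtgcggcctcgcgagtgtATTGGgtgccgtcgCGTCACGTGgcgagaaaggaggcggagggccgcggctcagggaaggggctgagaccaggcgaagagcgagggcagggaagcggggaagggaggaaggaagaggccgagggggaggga
Adam17, chr12:21373583-21373882, minus strand: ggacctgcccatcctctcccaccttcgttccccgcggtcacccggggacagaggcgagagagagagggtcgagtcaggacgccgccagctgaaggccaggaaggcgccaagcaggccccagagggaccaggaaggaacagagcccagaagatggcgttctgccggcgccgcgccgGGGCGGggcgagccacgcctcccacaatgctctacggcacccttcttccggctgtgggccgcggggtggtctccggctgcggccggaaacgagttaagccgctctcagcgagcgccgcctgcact

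The Adamts1 window held 1 TATA box, with its first base at position -32 from the start, and 3 GC boxes. A TATA box of these letters was in 13.6% of the 32544 promoter windows and in none of the windows of Adamts9, Adamts12, Adam10 and Adam17. Adam10 held 3 GC boxes, 2 CCAAT boxes and 1 E-box, and Adam17 held 1 GC box and none of the other motifs. Adamts1, Adam10, Adamts9 and Adamts12 each held 1 short form of the cAMP response element, and Adamts9 also held 1 GC box. A GC box was in 35.9% of all windows and a CCAAT box in 37.4%. The short form of the cAMP response element was in 20.9% and the E-box in 7.2%. The count of CpG dinucleotides was 18 in Adamts1, 25 in Adamts9, 7 in Adamts12, 32 in Adam10 and 30 in Adam17, against a median of 7 over all windows. At least as many were found in 29.9%, 18.6%, 52.4%, 9.6% and 11.8% of all windows, in the same order of genes. These matches describe letters in the windows and say nothing of binding.

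The comparison asked how the transcript level of each protease differed between the Islr knockdown arrays and the control array. Adamts4, Adamts1 and Adamts15, all secreted ADAMTSs, lay below the control on all 3 hairpins, Adam12 and Adam9 lay above it on all 3, and Adamts5, Adamts9, Adam10 and Adam17 went both ways. Adamts4 had the largest mean difference of the 9, a 3.16-fold lower signal, and Adam12 the largest above the control, 1.81-fold. None of the 9 passed limma's test over all genes (adjusted p from 0.639 to 0.998), where 0.346% of all genes tested were called, every one of them lower and none above background on all 4 arrays. At an unadjusted limma p under 0.05 were 2 of the 9, Adam12 above and Adamts4 below the control. So were 4.83% of all genes (1.52% higher and 3.31% lower). Among genes above background on all 4 arrays, as these 9 were, the share was 3.05% (1.27% higher and 1.78% lower). The 47 calls over all genes fell to 0 when hairpin 1, hairpin 2 or hairpin 3 was left out.

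Differences are log2 of the signal relative to the array's 75th percentile, hairpin minus control, and each mean carries the SD of the 3 hairpin values (n = 3), with 1 control array. A gene's own spread in the fit comes from the hairpins alone, with 2 residual degrees of freedom. Limma moderates it with the spread over all genes, for 4.45 degrees of freedom in total. All 3 differences of a gene share the control array, so noise in that array moves them together. Of all genes tested, 27.6% lay above the control on all 3 hairpins and 24.6% below it, against 2 and 3 of the 9 proteases. Among genes above background on all 4 arrays these shares were 28.8% and 22.7%. An exact permutation test has only 4 ways to choose the control array and cannot go below a p of 0.25. Islr itself, the gene the hairpins target, was not called by limma either, so a missing call does not show an unchanged transcript. In RNA from whole cultures, fewer cells that express a gene and less RNA per cell cannot be told apart.

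**Figure D1:**
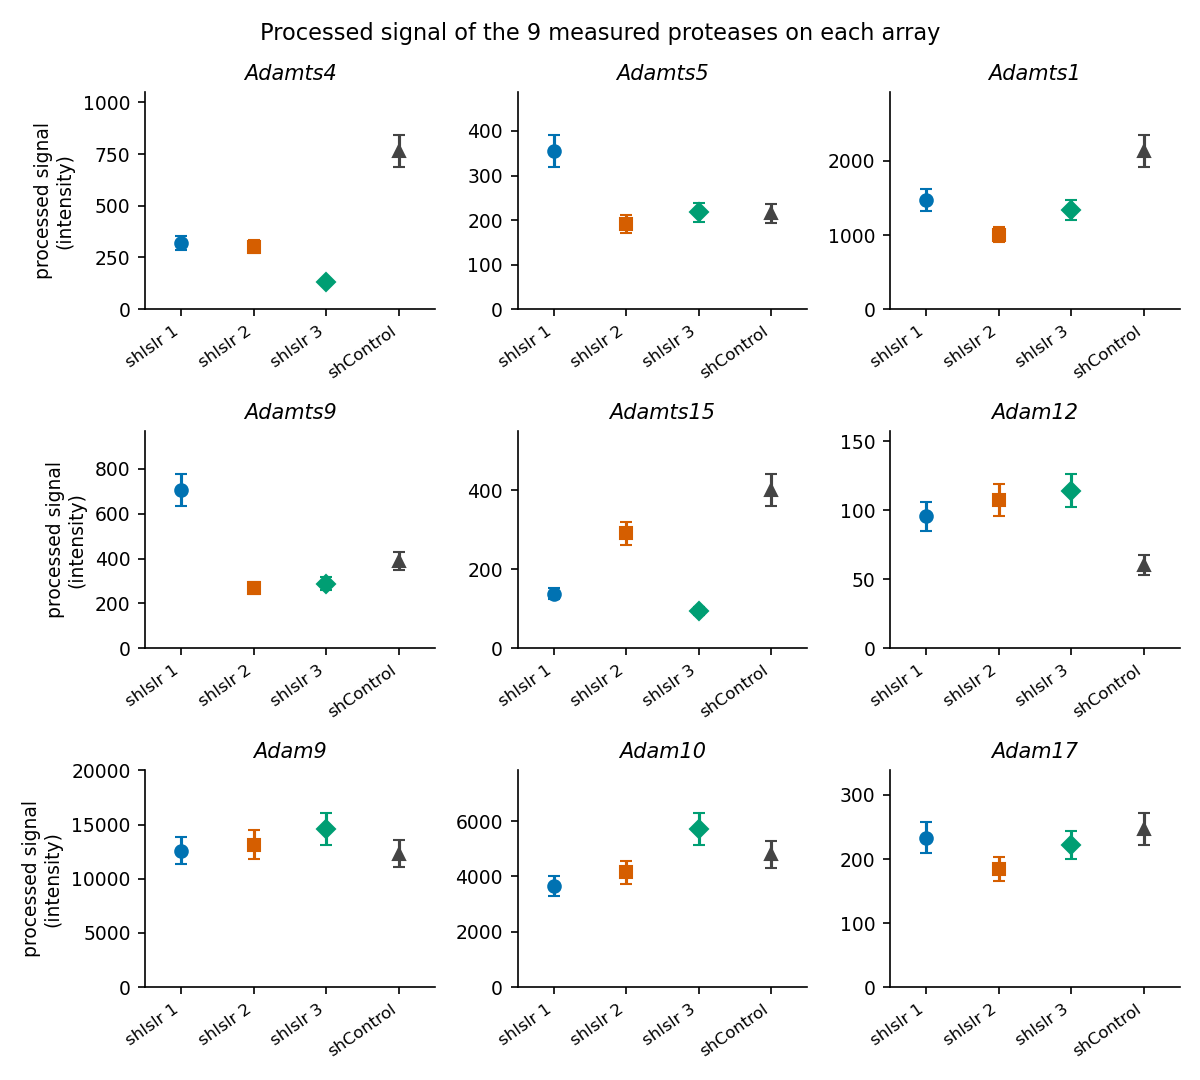
Processed signal (intensity, linear axis from 0, own scale per gene) of the 9 measured proteases on the 3 shIslr arrays and the shControl array. Points are single arrays and bars the error that the scanner software gives each feature; the control lies above every hairpin for Adamts4, Adamts1 and Adamts15, and below every hairpin for Adam12 and Adam9.

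Adamts4, an aggrecanase of cartilage and tendon that also cuts versican, had signals of 319.9, 303 and 132 on hairpins 1, 2 and 3, against 764 on the control array. The control lay well above all 3 hairpins, hairpins 1 and 2 lay close together, and hairpin 3 was lowest. The differences of -1.16, -1.31 and -2.50 gave a mean of -1.66 ± 0.73 (limma 95% interval -3.25 to -0.07, unadjusted p = 0.0439, adjusted p = 0.964). Adamts4 was 2.24-fold, 2.48-fold and 5.66-fold lower on hairpins 1, 2 and 3, and it was the only one of the 9 to differ at least 2-fold in 1 direction on all 3, a size that 1.69% of all genes tested reached on the lower side and 0.236% on the higher. Among the 12716 genes above background on all 4 arrays, 0.315% were at least 2-fold lower on all 3 hairpins. Without hairpin 3 the mean was -1.24. Hairpin 3 also had the widest differences over genes above background on all 4 arrays. Their 5th to 95th percentile was -0.60 to 0.50 on hairpin 1, -0.70 to 0.67 on hairpin 2 and -0.81 to 0.78 on hairpin 3.

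The scanner software gives each feature an error, here close to 10% of the signal for most of these probes, which puts the error of a log2 difference between arrays near 0.20. The error is given per spot and does not cover the difference between cultures. For the brighter probes it was almost the same share of the signal on every array. There, 2 software errors act as a nearly fixed cut on the size of a difference. Multiples of the error therefore largely restate that size and are not test statistics. Adamts4 exceeded 2 such errors on each hairpin, with differences 5.66, 6.38 and 12.03 times their error. Hairpins 1 and 2 differed from each other by 0.15, which is within 2 errors, and hairpin 3 lay 1.19 below hairpin 2, which is beyond them. Probes that occur several times on an array had a smaller spread, with a median SD between 0.063 and 0.067 on the log2 scale.

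Adamts15, a secreted aggrecanase that also cuts versican and is known from muscle development, had signals of 138, 291 and 95.01 on hairpins 1, 2 and 3, against 400.3 on the control array. All 3 hairpins were below the control, hairpin 2 by much less than hairpins 1 and 3. The differences were -1.44, -0.44 and -2.05, with a mean of -1.31 ± 0.81 (limma 95% interval -3.05 to 0.44, adjusted p = 0.964). The hairpins themselves were spread over 3.05-fold, and each step in the order control, hairpin 2, hairpin 1, hairpin 3 was larger than 2 software errors.

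Adamts1, the founding ADAMTS, which cuts aggrecan and versican and is known from ovulation and vessel growth, had signals of 1478, 1005 and 1339 on hairpins 1, 2 and 3, against 2130 (2129.7) on the control array. The control was highest and hairpin 2 lowest. The differences of -0.43, -1.06 and -0.64 averaged -0.71 ± 0.32, a 1.64-fold lower signal (limma 95% interval -1.53 to 0.10, unadjusted p = 0.0735, adjusted p = 0.964). Each difference exceeded 2 software errors, that of hairpin 1 barely, at 2.13 times its error. Its promoter is the TATA-box window shown above.

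Adamts5, the other main aggrecanase of mouse cartilage, had signals of 354, 191 and 217 on hairpins 1, 2 and 3, against 215 on the control array. On this probe only hairpin 1 stood apart from the control, and hairpins 2 and 3 lay within 2 software errors of it. The differences were 0.81, -0.15 and 0.04, with a mean of 0.24 ± 0.51 (limma 95% interval -0.92 to 1.39, adjusted p = 0.974). A second probe for Adamts5 read 258, 99.7 and 148 against 168 on the control array, so that its differences were 0.71, -0.73 and -0.16. On hairpin 2 this probe differed from the control by 3.34 times its software error. The probes are alike on hairpin 1 and apart on hairpin 2, and the mean of the second probe had the other sign (-0.06). Without hairpin 1 the mean of the brighter probe was -0.05.

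Adamts9, a versican-cutting ADAMTS related to a worm gonad protease, had signals of 705, 268 and 288 on hairpins 1, 2 and 3, against 388 on the control array. Hairpin 1 was far above the control and the other two were below it. The differences of 0.95, -0.51 and -0.40 cancelled in the mean of 0.01 ± 0.82 (limma 95% interval -1.74 to 1.76, adjusted p = 0.998). Without hairpin 1 the mean was -0.46, and with normexp background correction and quantile normalization together it was -0.01. Of the genes above background on all 4 arrays, 3.04% had a larger SD between hairpins than Adamts9. Adamts5 and Adamts9 both had their highest signal on hairpin 1.

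Adamts12, a protease that cuts cartilage oligomeric matrix protein, was not well above background on any of the 4 arrays with either of its probes. Their signals were between 3.78 and 7.51 on the hairpin arrays and 5.05 and 4.83 on the control array, below the lowest called signals of 15.007 to 20.8. No fold is given for it.

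**Figure D2:**
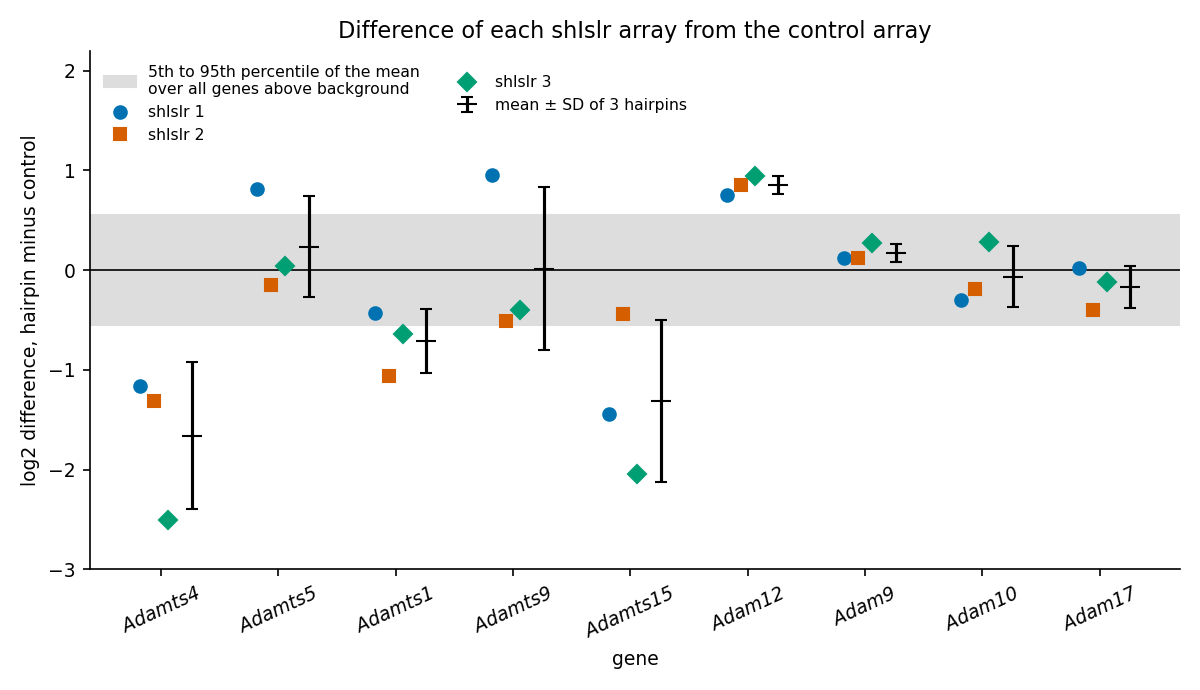
Log2 difference of each shIslr array from the shControl array for the 9 proteases, with the mean ± SD of the 3 hairpins in black. The grey band spans the 5th to the 95th percentile of the mean difference, -0.55 to 0.55, over genes above background on all 4 arrays; Adamts4, Adamts1 and Adamts15 have means below it and Adam12 a mean above it.

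Adam12, the membrane-anchored meltrin alpha that is made by mesenchymal and injured stromal cells and can shed EGF receptor ligands, had signals of 95.7, 108 and 114 on hairpins 1, 2 and 3, against 60.4 on the control array. All 3 hairpins were above the control, and neighbouring hairpins in the order lay within 2 software errors of each other. The differences of 0.76, 0.86 and 0.95 averaged 0.85 ± 0.09 (limma 95% interval 0.34 to 1.37, unadjusted p = 0.00909, adjusted p = 0.639). Hairpin and control differed by over 2 software errors each time, at 3.21 to 4.12 times the error. The mean was 0.50 when quantile normalization was combined with normexp (offset 50), and 0.90 with quantile normalization alone.

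The other probes of Adam12 were not well above background on any array. One read 14.2, 14.6 and 15.4 on hairpins 1, 2 and 3 against 4.85 on the control array, and the other read 4.75, 4.41 and 3.44 against 4.34. The first of these lay on the same side as the brightest probe and the second showed no order, but no fold holds below background. The level of Adam12 therefore rests on 1 probe.

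Adam9, a widely made sheddase of the cell surface, had signals of 12606, 13151 and 14571.5 on hairpins 1, 2 and 3, against 12317 on the control array. The differences of 0.13, 0.12 and 0.27 averaged 0.17 ± 0.09 (limma 95% interval -0.34 to 0.68, adjusted p = 0.970). Although all 3 lay above the control, none did so by 2 software errors.

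Adam10, the main sheddase of Notch receptors and of N-cadherin, had signals of 3655, 4148 and 5704 on hairpins 1, 2 and 3, against 4792 on the control array. Hairpins 1 and 2 were below the control and hairpin 3 above it, with differences of -0.30, -0.18 and 0.28 and a mean of -0.07 ± 0.31 (limma 95% interval -0.86 to 0.73, adjusted p = 0.995). Without hairpin 1 the mean was 0.05. No step between neighbours in the order of the 4 arrays exceeded 2 software errors. Hairpins 3 and 1, the highest and the lowest, lay 0.58 apart, which is beyond 2 errors of about 0.20 each.

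Adam17, the TNF-alpha converting enzyme, had signals of 234, 184 and 222 on hairpins 1, 2 and 3, against 246 on the control array. The control and hairpin 1 were nearly equal and hairpin 2 was lowest. The differences were 0.02, -0.40 and -0.12, with a mean of -0.17 ± 0.21 (limma 95% interval -0.81 to 0.48, adjusted p = 0.972). Without hairpin 2 the mean was -0.052, and without hairpin 1 it was -0.26. A second probe gave 0.04, -0.45 and -0.31 and thus the same order of hairpins on lower signals. The 95% intervals of Adam9, Adam10 and Adam17 reach 1.26-fold, 1.82-fold and 1.76-fold below the control and 1.61-fold, 1.65-fold and 1.40-fold above it.

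**Figure D3:**
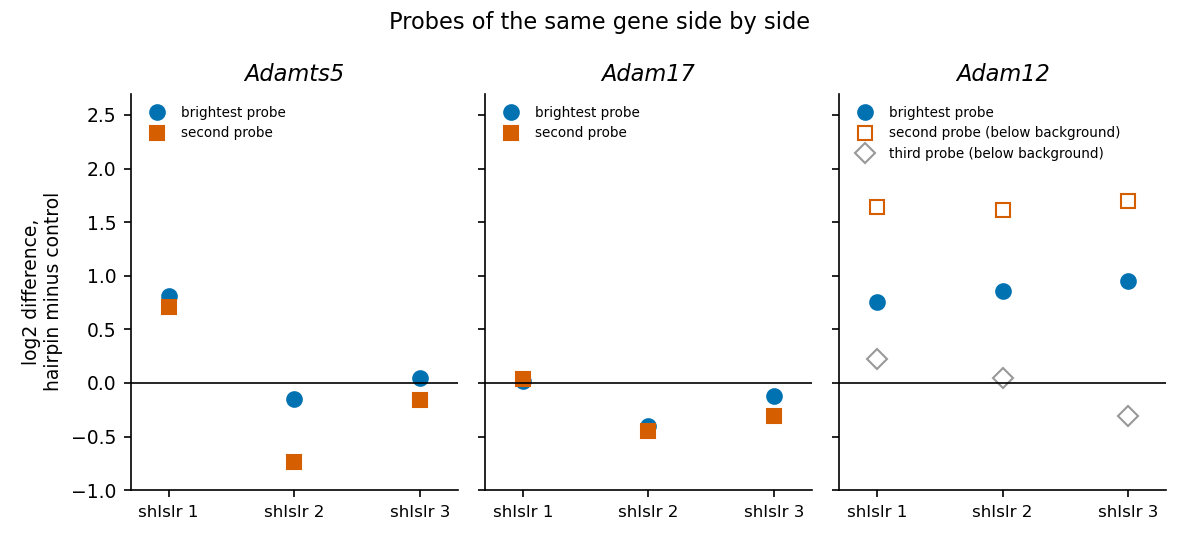
Log2 difference of each shIslr array from the shControl array for each probe of Adamts5, Adam17 and Adam12. Open symbols are probes below background on all 4 arrays; the 2 Adam17 probes lie within 0.19 of each other on every hairpin, and the 2 Adamts5 probes are 0.58 apart on hairpin 2.

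Across the 9 proteases, 15 of the 27 differences exceeded 2 software errors, as did 24.1% of single differences over all genes tested. These were all 3 of Adamts4, Adamts1, Adamts15 and Adam12, hairpins 1 and 2 of Adamts9, and hairpin 1 of Adamts5. The tally uses the brightest probe of each gene. By their second probes, Adamts5 and Adam17 also lay below the control on hairpin 2, by 3.34 and 2.11 software errors. A lower signal beyond 2 software errors on all 3 hairpins was seen in 3 of the 9 proteases and in 3.32% of all genes tested. A higher one was seen in 1 of the 9 and in 1.95% of all genes. Among genes above background on all 4 arrays, as these 9 were, the shares were 2.36% lower and 2.00% higher. The proteases were chosen with earlier results of these data known, so this is a description. The median mean difference of the 9 was -0.07, against 0.01 over all genes tested, and their median SD between hairpins was 0.32, against 0.19 over genes above background on all 4 arrays. On hairpins 1, 2 and 3, 5, 2 and 4 of the 9 lay above the control, beside 49.0%, 50.3% and 55.1% of all genes tested.

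Patterns most like those of the extreme members were sought by the Euclidean distance over the 3 differences, among the 12715 other genes above background on all 4 arrays. Nearest to Adamts4 were Srpx (distance 0.21), the basement membrane gene Nid2 (0.32) and the glutamate transporter gene Slc1a6 (0.33). Nearest to Adam12 were the ribosome biogenesis gene Rrp12 (0.12), the zinc transporter gene Slc39a4 (0.13) and the zinc finger gene Zfp367 (0.15). Each pattern is 3 differences that share 1 control array.

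Of 19 other ADAMTS and ADAMTS-like genes, 9 were tested and 8 were above background on no array. Of the 9, 0 lay above the control on all 3 hairpins, 3 lay below it and 6 went both ways, with a median of -0.30, where 27.6% and 24.6% of all genes lay above and below. The procollagen N-peptidase gene Adamts2 (-0.93 ± 0.28) and Adamtsl1, a matrix protein gene without a catalytic domain (-0.56 ± 0.12), were lowest among those above background on all 4 arrays. Adamtsl5 (0.33 ± 0.61) and Adamtsl4 (0.01 ± 0.57), which binds fibrillin microfibrils, were highest and changed sign between hairpins. None passed limma's test.

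Of 9 further somatic ADAMs, 5 were tested and had means between -0.11 for Adam15 and 0.24 for Adam33, with Adam8 at 0.07 and Adam19, a relative of Adam12, at -0.06. Of 21 ADAMs known from testis, epididymis and sperm, 12 were above background on no array and 5 were tested, among them Adam5 (-0.39 ± 0.11) and Adam32 (0.23 ± 0.81) at the ends, with Adam21 at -0.07 and Adam6b at 0.21. No gene of either group passed limma's test.

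Genes that restrain or clear these proteases went in different directions. Timp3, the inhibitor of Adam17, Adam10 and the aggrecanases that stays bound in the matrix, had differences of -0.02, -0.19 and 1.54 on hairpins 1, 2 and 3 (mean 0.44 ± 0.96). Its signal was 22609, 20964 and 69606 on the hairpins, against 24374 on the control array, so that hairpin 3 alone stood apart. Timp1, which inhibits Adam10, was at 0.39 ± 0.18. Lrp1, the endocytic receptor that clears Adamts4 and Adamts5, was at -0.56 ± 0.59, and Fbln1, a fibulin that binds Adamts1 as a cofactor, at -0.97 ± 0.43 and below the control on all 3 hairpins. Over all genes tested, 27.6% lay above the control on all 3 hairpins and 24.6% below it. The 8 tested genes of this group split into 2 above the control on all 3 hairpins, 2 below and 4 of mixed sign. No call was made among them by limma.

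Genes for activation and trafficking had a median of -0.11. Of 11 tested, 0 lay above the control on all 3 hairpins, 4 below it and 7 were of mixed sign, with no call by limma. Shares over all genes tested were 27.6% above and 24.6% below. Frmd8, the partner of the iRhoms that carry Adam17 to the surface, was at -0.33 ± 0.25, and Tspan17 and Tspan15, tetraspanins that guide Adam10, were at -0.41 ± 0.59 and 0.08 ± 0.96. Sdc4, a syndecan that binds Adamts proteases at the surface, was at 0.08 ± 0.19. The iRhom gene Rhbdf1, at -0.29 ± 0.15, and the convertase gene Furin, at 0.07 ± 0.17, were picked after their values were seen.

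Hyaluronan genes, Comp and the proteoglycans that Adamts1, Adamts4, Adamts5, Adamts9 and Adamts15 act on had 7 of 13 genes tested. Their median was 0.32, and of the 7 only Acan and Vcan encode such proteoglycans. Of the 7, 3 were above the control on all 3 hairpins, 0 below and 4 went both ways. The shares over all genes tested were 27.6% above and 24.6% below. The 3 included Acan, named after its values were seen, at 0.01 on hairpin 1, where it was not well above background. Has2, a hyaluronan synthase gene, was at 0.62 ± 0.46, the hyaluronan receptor gene Cd44 at 0.42 ± 0.08, the link protein gene Hapln3 at -0.13 ± 0.24 and Comp at -0.60 ± 0.91. None passed limma's test. Vcan, the versican gene, was looked up after its values were seen and had differences of 0.65, -0.85 and 0.38 on hairpins 1, 2 and 3.

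Substrates shed or cut by Adam9, Adam10, Adam12 or Adam17 had 24 of 30 genes tested (median -0.14). Of these 24, 5 lay above the control on all 3 hairpins, 10 below and 9 went both ways. Over all genes tested the shares were 27.6% above and 24.6% below. The N-cadherin gene Cdh2, an Adam10 substrate, was at 0.63 ± 0.27, and the cadherin gene Cdh11 at -0.54 ± 0.36. Cx3cl1, the membrane-bound chemokine shed by Adam10 and Adam17, had differences of -0.09, -1.05 and -1.99 (mean -1.04 ± 0.95). Igfbp3, an insulin-like growth factor binding protein cut by Adam12, was at -0.16, -0.59 and 2.84, so that its mean of 0.70 ± 1.87 rests on hairpin 3. Its relative Igfbp5, also an Adam12 substrate and named after its values were seen, was not well above background on any hairpin. In the mean of the 3 hairpins it was at least 8.18-fold below a control signal of 153. This bound uses the mean log2 of the lowest signals called above background, so it need not hold on each hairpin. None of the 24 passed.

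**Figure D4:**
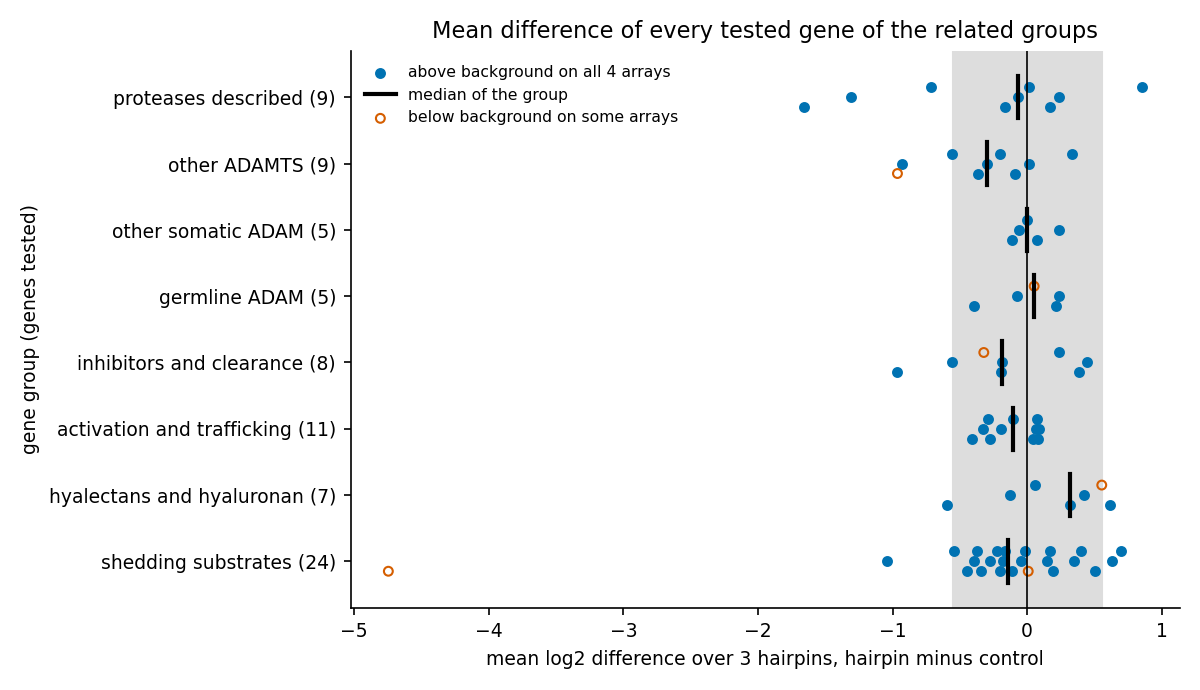
Mean log2 difference over the 3 shIslr arrays against the shControl array for every tested gene of the 10 proteases and the related groups, with the group median in black and the number tested in brackets. The grey band is the 5th to 95th percentile of the mean over genes above background on all 4 arrays; open symbols mark genes below background on some arrays, and the point near -4.75 is Igfbp5.

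Marker genes of other cell types were compared in the same way, and their part in the results above was not tested. The 4 tested macrophage markers (of 8) had a summed signal, relative to each array's 75th percentile, of 17.9 to 28.4 on the hairpin arrays and 26.6 on the control array. Itgam, the brightest of the 4, was at -0.32 ± 0.45, Csf1r at -0.31 ± 0.10 and Cd68 at -0.64 ± 0.33, while Cd14 was at 0.56 ± 0.18. The 2 tested endothelial markers (of 6) summed to 7.59 to 8.10 on the hairpin arrays, against 8.12 on the control array, with Kdr and Pecam1 both at -0.05. The 3 tested epithelial markers (of 6) summed to 1.06 to 2.93 on the hairpin arrays, against 0.545 on the control array, with Krt19 at 2.03 ± 0.97 and Krt18 at 0.06 ± 0.61. Among the 12 mesenchymal stromal markers, Thy1 (1.12 ± 0.49) and Cd44 were highest, and Pdgfrb (-0.59 ± 0.55) and Pdgfra (-0.81 ± 0.61) lowest.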

How the data were processed

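Total RNA of 4 cultures was labelled with Cy3 and hybridised to one-colour Agilent arrays of design 028005 on 1 slide. The deposited values are processed signal intensities from Agilent Feature Extraction 11.5.1.1 with protocol GE1_1105_Oct12 and build mm9, per the file headers. From these, log2 signals minus each array's 75th percentile were computed, and features of one probe were averaged. A probe was kept if its signal was called well above background for the control or for each of the 3 hairpins, and the brightest kept probe stood for a gene. Genes were named by matching the probe's accession to RefSeq. The lmFit and eBayes functions of limma 3.58.1 (R 4.3.3) compared hairpins with the control, two-sided, with Benjamini-Hochberg adjustment over all genes and a threshold of 0.05; the code was tested on simulated data. With 1 control array, its spread was taken to equal that of the hairpins. The number of arrays limits the precision.

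The 10 proteases and all lists were chosen with earlier results of these data known. Of each related list, the 2 highest and 2 lowest genes by mean difference were named among those above background on all 4 arrays, with any gene called by limma, and for the proteases highest and lowest, the 3 genes nearest in pattern. Alternatives covered normalization, centring, background correction, the authors' series table, filters, the probe of a gene, the spread estimate, outlier flags and leaving out each hairpin. A filter on at least 1 array and the dimmest kept probe were chosen after seeing the data.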

Additional observations from a re-analysis of the deposited data

How the results depend on the processing

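None of the 9 proteases was called by limma under any of the 14 alternatives, where the smallest adjusted p was 0.495, for Adamts15 without hairpin 2. The 47 calls over all genes became 75 with quantile normalization. They became 0 with normexp and quantile normalization together, with no filter, with probes above background on all 4 arrays or on at least 1 array, and with an intensity trend, and the range on leaving out a hairpin was 0 to 0; the cause was not tested. Proteases lower on all hairpins used numbered 3 to 5 on leaving out a hairpin, with 5 without hairpin 1, where 2 hairpins remain to satisfy the count. On leaving out a hairpin the mean difference ranged from -0.052 to 0.43 for Adamts5, from -0.46 to 0.28 for Adamts9 and from -0.24 to 0.048 for Adam10, and it took the other sign without hairpin 1 in each. The sign also turned for Adamts5 with its dimmer probe (-0.063) and for Adamts9 with normexp and quantile normalization together (-0.013); the cause was not tested. Adamts12, below background throughout, entered only without a filter. Software errors near 10% limit what a single difference can show. No paired analysis was possible because the control has 1 array and shares at most 1 replicate number with the hairpins.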

Other observations

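Some of these genes are neighbours in the RefSeq annotation: Adamts1 lies next to Adamts5, Adam9 next to Adam32 and Adamts15 next to Adamts8. Adamts8, a secreted ADAMTS, had signals of 16.9, 54.1 and 91.4 on hairpins 1, 2 and 3, against 88.2 on the control array, and was not well above background on hairpin 1. Adamts8 and Adamts15 both lay below the control on hairpins 1 and 2, with differences of -0.68 and -0.44 on hairpin 2. On hairpin 3 Adamts8 was at 0.08 and Adamts15 at -2.05. Adamts8 was named after its values were seen, and no test was made of the neighbours.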
